A study of Mus musculus with 15 samples.

Results

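The 1530 regions described here carried a peak of histone H3 lysine 4 methylation (H3K4me1/2) in at least 2 of 3 mouse lymphoma samples with an empty vector (EV) and in none of 3 with a short hairpin RNA (shRNA) that targets Kmt2d, called sh-Kmt2d. They were chosen from 39519 autosomal regions, made by joining all peaks of the 6 deposited lists that overlapped by at least 1 base, and were 3.87% of them. Of the 31300 regions found in at least 2 EV lists, they made up 4.89%. These shares follow from the rule that chose the regions, so they are a description and were not tested. The regions are called missing regions below. A region absent from a list is one in which no peak was called there. It need not be free of the mark, since read coverage was not used here.

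KMT2D is one of the large methyltransferases that place methyl groups on lysine 4 of histone H3, mainly at enhancers. Monomethylation (H3K4me1) marks active and poised enhancers, and dimethylation (H3K4me2) marks enhancers and the flanks of promoters. In germinal centre B cells, from which many lymphomas arise, KMT2D acts as a tumour suppressor, and its gene is often mutated in human follicular and diffuse large B cell lymphoma. The antibody used recognises both the mono- and the dimethylated form, so the forms cannot be told apart.

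The tumours were mouse B cell lymphomas, and the cells were enriched straight from them with magnetic beads for CD45R (B220), without culture. The control group carried the empty vector and the other group the sh-Kmt2d vector. No mouse strain, age, other allele or hairpin sequence is given in the sources used here. Chromatin immunoprecipitation gave 1 list each for EV replicates 1 to 3 (titles 87_3, 87_4 and 87_5) and for sh-Kmt2d replicates 1 to 3 (titles 103_5, 110_1 and 110_2). All EV lists share the first title number 87, which no sh-Kmt2d list has, so that what this number stands for and the vector cannot be told apart. RNA libraries numbered 4 with the empty vector (titles 78_5, 87_1, 87_2 and 87_5) and 5 with sh-Kmt2d (titles 103_1, 103_2, 103_5, 110_2 and 110_3). No first title number occurs with both vectors here either, so the same limit holds for RNA. Nothing says that the samples came from separate animals, and p-values then measure only the spread between these samples. A weaker mark in all cells and a mark lost from some of the cells cannot be told apart in such bulk samples.

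RNA served as a check of the labels. Kmt2d stood at 545, 283, 527 and 104 counts per 1000000 gene counts (CPM) in EV RNA replicates 1 to 4, and at 61.4, 50.4, 225, 18.8 and 5.23 CPM in sh-Kmt2d RNA replicates 1 to 5. Library sh-Kmt2d replicate 5 stood apart, with 5925745 gene counts, 16008 genes detected against 18160 to 19775 in the others, and a TMM scaling factor of 0.536 against 0.998 to 1.12. After TMM scaling its Kmt2d level was 9.76 CPM. It also gave the highest Cd79a and Cd79b levels below. The groups overlapped, since the highest sh-Kmt2d library, replicate 3, exceeded the lowest EV library, replicate 4. The mean log2 CPM was lower in sh-Kmt2d by a difference of -3.04 (two-sided exact permutation p = 0.0317, n = 4 and 5). The permutation takes all libraries as exchangeable and ignores first title numbers. Among sh-Kmt2d libraries Kmt2d stood at 50.4 to 225 CPM under number 103 and at 5.23 to 18.8 CPM under number 110. Leaving out 1 library at a time gave a difference between -3.69 and -2.33, and the exact permutation p rose to between 0.0571 and 0.0714 when any 1 of EV replicates 1, 2 and 3 or sh-Kmt2d replicates 1, 2, 4 and 5 was left out. The title numbers 87_5, 103_5 and 110_2 occur among both RNA and chromatin samples, though nothing says that these are the same tumours, and the RNA libraries with these numbers had 104, 225 and 18.8 CPM of Kmt2d. Among these the sh-Kmt2d library 103_5 held more Kmt2d RNA than the EV library 87_5. B cell markers were present in every RNA library. Cd79a and Cd79b, the signalling chains of the B cell receptor, stood at 1083 to 1570 and 1786 to 2475 CPM in EV and at 1267 to 5229 and 2758 to 10674 CPM in sh-Kmt2d. Pax5, the transcription factor of B cell identity, stood at 183 to 307 CPM in EV and 147 to 291 CPM in sh-Kmt2d. Cd79b did not overlap between the groups. The 5 T cell markers summed to 208 to 266 and 223 to 453 CPM, the 5 macrophage markers to 148 to 514 and 103 to 176 CPM, the 4 platelet markers to 5.47 to 6.76 and 0.844 to 2.23 CPM, the 4 stromal markers to 0.291 to 1.45 and 0.205 to 2.70 CPM, and the 3 erythroid markers matched to 7.48 to 207 and 13.7 to 38.8 CPM, in the same order and with none at 0 in all libraries of a group. The platelet sums did not overlap between the groups, and the other sums did. In sh-Kmt2d the platelet sums rested on few reads. Replicate 5, with the lowest sum of 0.844 CPM, was the library with the fewest counts, and Gp9 was at 0 in replicates 4 and 5. Single markers could differ from their sum. Cd3g, a chain of the T cell receptor complex, stood at 4.50 to 10.6 CPM in EV and 23.1 to 70.6 CPM in sh-Kmt2d. Cd2, Cd3d, Cd3e and Cd5 of the same list overlapped between the groups. The last 3 stood at 2.46 to 5.38, 2.00 to 4.72 and 2.53 to 6.90 CPM in EV. In sh-Kmt2d they stood at 4.37 to 16.9, 1.52 to 5.39 and 2.98 to 5.77 CPM, in the same order. Csf1r, a growth factor receptor of macrophages, stood at 24.3 to 140 CPM in EV and 7.65 to 20.2 CPM in sh-Kmt2d, and Mrc1, the mannose receptor, at 9.28 to 53.4 and 2.53 to 5.24 CPM. Cd3g, Csf1r and Mrc1 did not overlap between the groups, while Adgre1, Lyz2 and Cd68 of the macrophage list did. Cd68 stood at 15.2 to 32.8 CPM in EV and 12.8 to 35.6 CPM in sh-Kmt2d. The share of all genes without overlap was not counted, so such a gap is a description only. The T cell sum was mostly Cd2, at 187 to 394 CPM over all libraries, so the sum gives no amount of T cells. The part of the marker differences in the peak lists was not tested. Less RNA per cell and fewer cells of a type cannot be told apart in these libraries.

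The lists were of similar length but did not cover the same amount of genome. On autosomes the EV lists held 36377, 34794 and 36074 peaks and the sh-Kmt2d lists 35204, 35999 and 33880. The means were 35748 ± 840 (SD, n = 3) and 35028 ± 1070 (SD, n = 3) peaks, with a two-sided exact permutation p = 0.5, where 3 lists against 3 allow no p under 0.1. The EV peaks covered 32.8, 33.8 and 32.0 Mb, and the sh-Kmt2d peaks 27.3, 33.2 and 25.6 Mb. The group means were 32.8 ± 0.9 Mb and 28.7 ± 4.0 Mb (SD, n = 3 each, two-sided exact permutation p = 0.3). List sh-Kmt2d 2 lay within the range of the EV lists in both measures, while lists sh-Kmt2d 1 and 3 covered less than any EV list. Sequencing depth of the chromatin libraries is unknown.

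Under the rule, more regions were missing from sh-Kmt2d than were found only there. The reverse rule, a peak in at least 2 sh-Kmt2d lists and in no EV list, gave 437 regions, which were 1.11% of all regions and 1.52% of the 28774 in at least 2 sh-Kmt2d lists. Of the missing regions, 418 were held by all 3 EV lists, which is 1.5% of the 27930 regions of that kind. The other 1112 were held by exactly 2 EV lists and made up 33% of the 3370 such regions. Regions found only in sh-Kmt2d and held by all 3 of its lists numbered 99 (0.393%), and 338 (9.49%) were held by exactly 2. With every list shortened by score to the 33880 peaks of the shortest, the counts were 1370 missing and 444 found only in sh-Kmt2d.

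The count leaned on single lists. Without EV replicate 1, 2 or 3, when a peak was needed in both lists that were left, 648, 929 and 876 regions were missing and 565, 755 and 726 were found only in sh-Kmt2d. The ratio of the counts was then 1.15 to 1.23, against 3.50 with all 6 lists. With 2 EV lists against 3, the rule asks more of a missing region and less of one found only in sh-Kmt2d. Without sh-Kmt2d replicate 2 (title 110_1) the missing regions numbered 3175, against 1979 without replicate 1 and 1615 without replicate 3, while 150, 233 and 259 were found only in sh-Kmt2d in the same order. When 1 EV and 1 sh-Kmt2d list were left out together, a choice made after the data were seen, the missing regions outnumbered those found only in sh-Kmt2d in all 9 pairs. They ran from 695 to 2257 and the regions found only in sh-Kmt2d from 199 to 497. The ratio of the counts was 7.60 to 8.92 in the 3 pairs without sh-Kmt2d replicate 2 and 1.89 to 2.94 in the 6 pairs with it. These pairs share lists, so that they are not separate measurements.

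Of the sh-Kmt2d lists, list sh-Kmt2d 2 was the one closest to the EV lists. Of regions held by a given pair of EV lists, 1.96% to 5.04% had no peak in the other EV list, which is the background of the measure among controls. The share without a peak in list sh-Kmt2d 2 was 3.39% to 4.82%, within that range. For the pair EV 1 and EV 2 it was 4.10% against 5.04% for the other EV list. For EV 1 and EV 3 it was higher, at 4.82% against 4.54%, and for EV 2 and EV 3 at 3.39% against 1.96%. The share was 8.34% to 10.7% for list sh-Kmt2d 1 (title 103_5) and 11.4% to 13.1% for list sh-Kmt2d 3 (title 110_2), above the range of the EV lists. Among weak regions, those with a mean score percentile under 25 in the pair, the shares were 13.0% to 27.4% for the other EV list. They were 20.8% to 25.3% for list sh-Kmt2d 2, 43.7% to 49.7% for list sh-Kmt2d 1 and 54.5% to 56.9% for list sh-Kmt2d 3. By pair, in the order above, list sh-Kmt2d 2 stood at 23.7%, 25.3% and 20.8%. The other EV list stood at 27.4%, 24.6% and 13.0%. A further 2105 regions were held by at least 2 EV lists and by 1 sh-Kmt2d list, and in 1584 of them that list was sh-Kmt2d 2, in 439 sh-Kmt2d 1 and in 82 sh-Kmt2d 3.

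**Figure D1:**
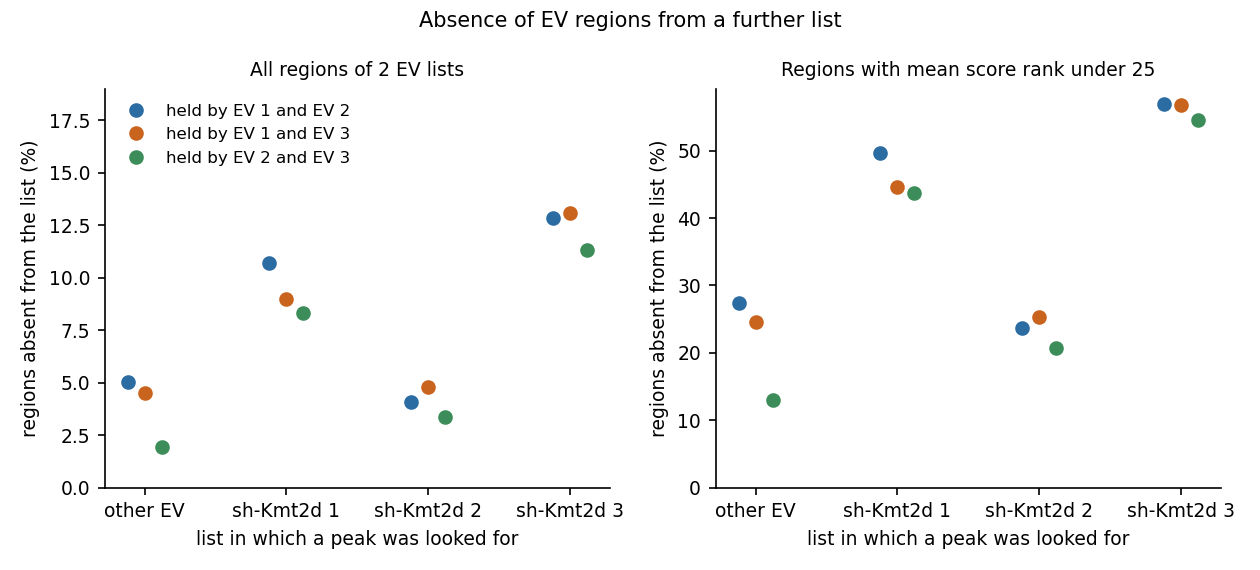
Share of regions (%, vertical axis) held by 2 EV lists in which a further list (horizontal axis: the other EV list or 1 of the 3 sh-Kmt2d lists) had no peak; colours give the pair of EV lists, at left for all regions and at right for those with a mean score percentile under 25. The points of list sh-Kmt2d 2 lie at 3.39% to 4.82% beside 1.96% to 5.04% for the other EV list, and those of lists sh-Kmt2d 1 and 3 lie higher.

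The missing regions were weak peaks in the EV tumours themselves. Each peak has a score in the deposited lists (column 5, with no unit given), here turned into a percentile within its own list, where 100 is the strongest. Missing regions had median score percentiles of 12.3, 13.2 and 14.3 in EV lists 1, 2 and 3. In list EV 1, 89.1% of the 1320 missing regions it held ranked below the 25th percentile and none above the 50th. In list EV 2 the share below the 25th percentile was 85.9% of 1062, again with none above the 50th. List EV 3 had 81.5% of 1096 below and 1 region above. For retained regions, those of at least 2 EV lists and at least 1 sh-Kmt2d list (29770 regions), the shares below the 25th percentile were 13.7% to 14.9%. The strength of an EV peak is not part of the rule, but whether a weak peak is called in a given list depends on it, so the shares are given without a test. Regions of 1 list are no replicates either.

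**Figure D2:**
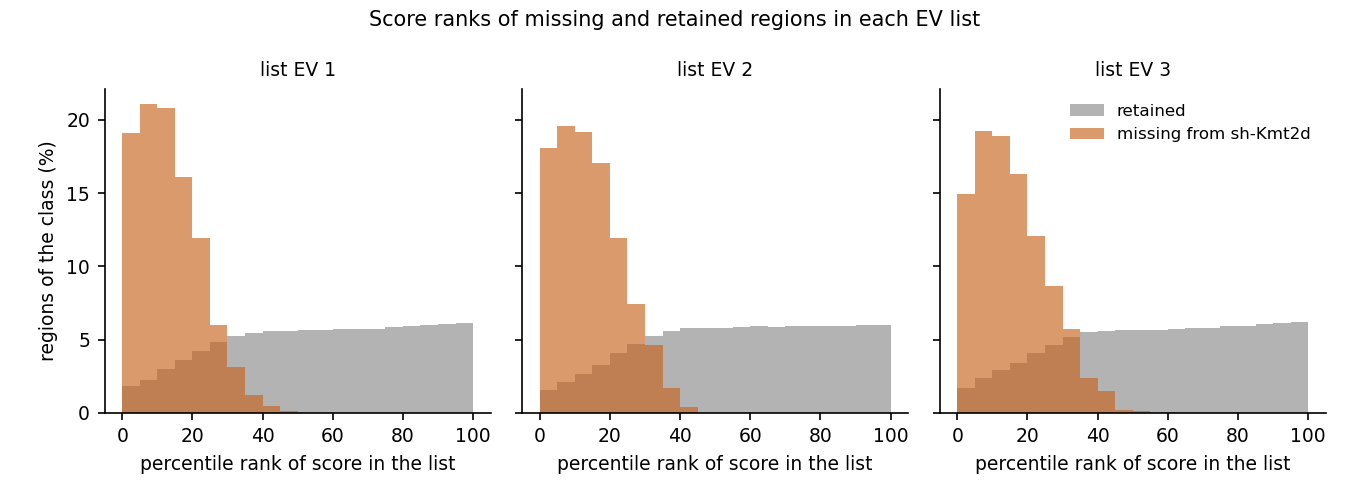
Percentile rank of the score within each EV list (horizontal axis, steps of 5) against the share of regions of the class (%, vertical axis), for missing regions (orange) and retained regions (grey). In lists EV 1 and EV 2 no missing region lies above the 50th percentile, and in list EV 3 1 does.

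Every listed peak had a value of -15 or lower in column 4, an unlabelled score that is more negative for stronger peaks, so -15 was the limit of what was listed. The missing regions lay close to it. Their median column 4 values were -18.5, -18.8 and -19.2 in EV lists 1 to 3. Within 5 units of the limit lay 71.6%, 67.6% and 59.1% of the missing regions in these lists, against 8.07%, 6.84% and 7.55% of the retained regions. The peak signal (column 7, a whole number at the highest point of the peak, with no unit given) was low as well. Its median over missing regions was 26, 26 and 28 in EV lists 1 to 3, where all peaks together had medians of 52, 56 and 53.

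The share of regions that was missing fell steeply with peak strength. The 31300 regions of at least 2 EV lists were divided into 10 equal classes by their mean score percentile in the EV lists. In the weakest class 1021 of 3130 regions were missing, or 32.6% (95% Wilson interval 31.0% to 34.3%). The next classes had 391 (12.5%, 11.4% to 13.7%), 110 (3.51%, 2.92% to 4.22%) and 8 (0.256%, 0.130% to 0.504%). In the 6 stronger classes 0 of 18780 regions were missing. The intervals cover counting error only, as if regions were independent, and do not cover the spread between lists. The 2 weakest classes held 92.3% of all missing regions. The regions of at least 2 sh-Kmt2d lists, divided the same way, had shares without any EV peak of 10.9%, 3.20%, 0.799% and 0.174% in the 4 weakest classes. In each of the 3 weakest classes the share missing from sh-Kmt2d was thus higher than the share missing from EV, and both fell with strength. By score the strongest region found only in sh-Kmt2d reached the 97.2th percentile of list sh-Kmt2d 1. No missing region ranked above 52.0 by score in any EV list.

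**Figure D3:**
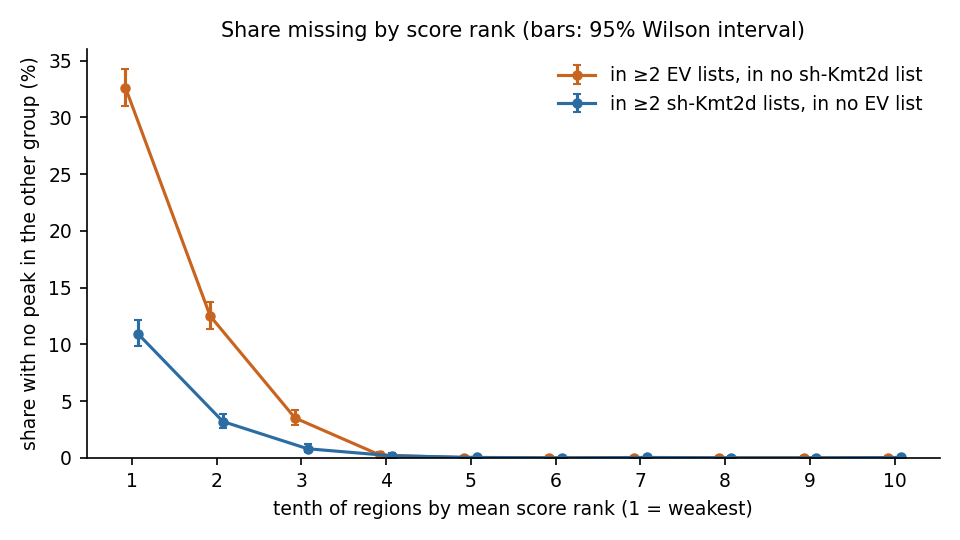
Share of regions (%, vertical axis, with 95% Wilson intervals) without any peak in the other group, over 10 classes of mean score percentile within the own group's lists (horizontal axis, 1 the weakest). The EV regions missing from sh-Kmt2d (orange) fall from 32.6% to 0.256% over the first 4 classes, and the regions found only in sh-Kmt2d (blue) from 10.9% to 0.174%.

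Missing regions were also short. Their median length was 354 bases, with quartiles of 255 and 489, and 27 of them (1.76%) were longer than 1000 bases. Those in all 3 EV lists had a median of 472.5 bases and those in 2 lists of 313 bases. Retained regions had a median of 1036 bases, and 52.4% of them were longer than 1000. Length followed how many sh-Kmt2d lists held a region. The median was 502 bases for regions of at least 2 EV lists with 1 sh-Kmt2d list and 627 bases with 2, and their median EV score percentiles were 18.7 and 22.7, against 13.2 for missing regions. Joining peaks of more lists lengthens a region. The EV peaks alone had medians of 243.5 bases per list in missing regions, 336 with 1 sh-Kmt2d list, 427 with 2 and 864 in all retained regions. Regions found only in sh-Kmt2d were as short, with a median of 326 bases and a median score percentile of 12.6 in the sh-Kmt2d lists. In all, the missing regions spanned 0.609 Mb, and they took 0.868% to 1.08% of the bases of an EV list and 3.12% to 3.78% of its peaks.

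The EV lists did not contribute equally. List EV 1 held 1320 of the missing regions (86.3%), list EV 3 1096 (71.6%) and list EV 2 1062 (69.4%). Of the missing regions held by exactly 2 lists, 468 were held by EV 1 and EV 3, 434 by EV 1 and EV 2, and 210 by EV 2 and EV 3. Missing or not, these pairs alone held 1328, 1483 and 559 regions in the same order, and 33% over the pairs were missing. The pair with the fewest missing regions thus also held the fewest regions, though by these counts the share missing was highest in that pair. List EV 1 had the most peaks of the 6 lists, and list EV 2 the fewest of the EV lists.

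How far apart the EV lists placed the highest point of a missing region was not used by the rule. For missing regions in 2 EV lists the highest points lay a median of 72 bases apart, and within 100 bases in 685 of 1112 (61.6%). Retained regions of the 2 weakest classes in 2 EV lists had a median of 84 bases and 55.8% within 100. For missing regions in all 3 EV lists the 3 highest points spanned a median of 167.5 bases and lay within 100 bases in 28.0%. Retained regions of the 2 weakest classes in all 3 lists had 174 bases and 28.6%, and all retained regions in 3 lists had 127 bases and 42.1%. The spans of missing regions were thus close to those of weak retained regions, and in 3 lists wider than those of all retained regions. Retained regions of the weak classes were longer, with medians of 459 and 606 bases in 2 and 3 lists, and length bounds how far such points can lie apart. The part of length in these spans was not tested.

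The strongest missing regions among those in all 3 EV lists, by mean score percentile, are given with their values. The highest mean score percentile of any missing region was 39.6, in a region that only EV lists 1 and 3 held. Coordinates are those of the lists, in mouse build mm9, and genes are not named since no mm9 annotation was used here. The first of those in all 3 lists was chr19:36741507-36742353, 846 bases long, with peak signals of 54, 35 and 47 in EV lists 1, 2 and 3. By score it stood below the middle of the EV lists, with a mean percentile of 37.0. Its signal of 54 in list EV 1 was above the median of 52 of that list. The nearest sh-Kmt2d peak lay 111485 bases away. Next came chr10:92996586-92997421 with signals of 44, 31 and 46, and a sh-Kmt2d peak 4801 bases away. At chr11:113623026-113624252 the signals were 37, 27 and 50, and a sh-Kmt2d peak lay 259 bases away. By score this member was the one that passed the 50th percentile of an EV list, at 52.0 in list EV 3. The short region chr11:114608959-114609393 had signals of 32, 39 and 35, and its 3 highest points fell within 17 bases. At chr19:21581933-21582801 the signals were 39, 31 and 51, with the nearest sh-Kmt2d peak 55925 bases away. The other 5 of these 10 lay on chromosomes 1, 9, 15 and 16, with signals between 27 and 43 and mean score percentiles of 31.8 to 33.2. List EV 2 gave the lowest signal in 7 of the 10 regions, so the lists did not rank these regions alike.

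The longest missing region was chr12:74306246-74308850 with 2604 bases, held by EV lists 1 and 3 with signals of 37 and 47 and absent from EV list 2. The next were chr9:103333585-103335483 (1898 bases, signals of 39, 33 and 43), chr9:37337453-37339041 (1588 bases, signals of 34, 39 and 38), chr14:31641845-31643237 (1392 bases, signals of 30, 26 and 38) and chr11:88396205-88397589 (1384 bases, signals of 41, 25 and 41). All 5 were longer than the retained median of 1036 bases, with signals that stayed below the medians of the lists. In the last of them list EV 2 had a peak of 136 bases and list EV 3 of 1342 bases, so that the length of a missing region could rest on 1 list.

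Just outside the rule stood regions of all 3 EV lists with a peak in 1 sh-Kmt2d list. The strongest of these 1157 were chr11:70401766-70402595 (signals of 53, 43 and 59), chr11:54787100-54787585 (40, 51 and 39) and chr19:46598526-46599451 (41, 41 and 47). In each the 1 sh-Kmt2d list was sh-Kmt2d 2, with signals of 34, 30 and 41. Just inside were regions that a sh-Kmt2d peak nearly reached. At chr6:100775892-100776200 a sh-Kmt2d peak touched the region, and at chr16:10497318-10497665 and chr3:151996620-151996874 it lay 1 base away.

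By their medians, missing regions lay nearer to other marked regions than weak retained regions did, and farther than retained regions as a whole. The nearest sh-Kmt2d peak lay a median of 3938 bases away (quartiles 699 and 13516). It was within 500 bases for 327 missing regions (21.4%), within 10 kb for 1064 (69.5%) and beyond 100 kb for 36 (2.35%). The nearest retained region lay a median of 4570 bases away, and for retained regions of the 2 weakest classes the nearest other retained region lay 5435 bases away. Shares within 500 bases were 20.1% and 17.8% in the same order, and within 10 kb 66.5% and 61.9%. Beyond 100 kb the shares were 2.48% and 4.31%, beside 2.52% for all retained regions to the nearest other. For all retained regions the nearest other retained region lay a median of 2360.5 bases away, within 500 bases for 31.7% and within 10 kb for 71.5%. The retained neighbours of missing regions had a median length of 1049 bases, close to the 1036 bases of all retained regions, with a median EV score percentile of 46.4 against 56.4. When gaps of up to 500 bases were closed by joining, 1188 regions were missing and 325 were found only in sh-Kmt2d.

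**Figure D4:**
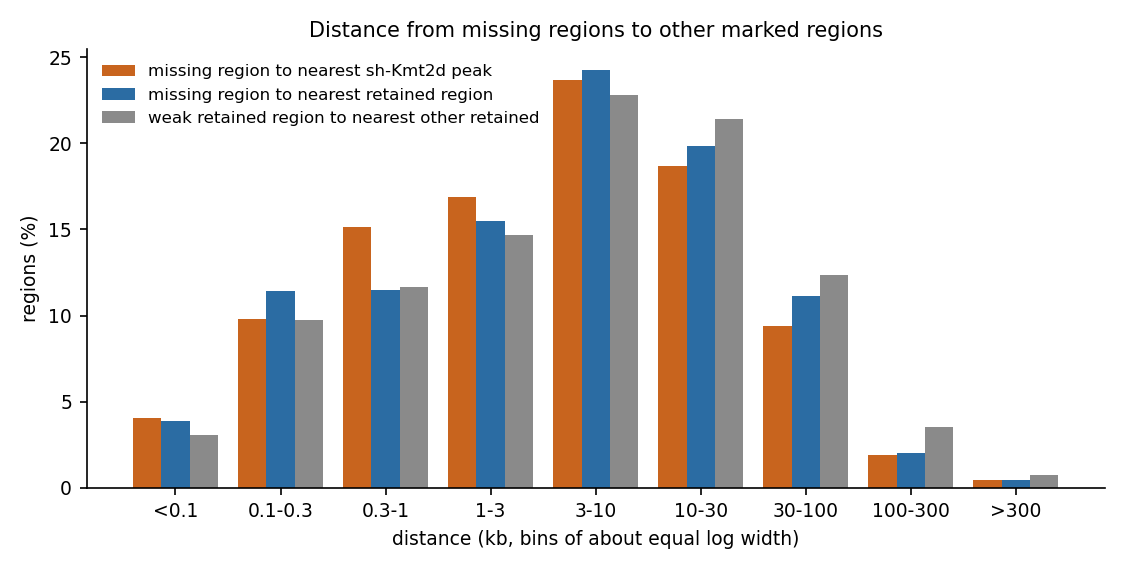
Distance in kb (horizontal axis, 9 bins) from missing regions to the nearest sh-Kmt2d peak (orange) and to the nearest retained region (blue), and from retained regions of the 2 weakest classes to the nearest other retained region (grey), as a share of regions (%, vertical axis). The medians are 3938, 4570 and 5435 bases.

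A few missing regions stood alone. The farthest from any sh-Kmt2d peak was chr14:44503008-44503194, at 1098207 bases, with signals of 27 and 22 in EV lists 2 and 3. It was the only region of any EV list in a stretch of 3757 kb. Second was chr16:27986140-27986557, with signals of 27 in EV lists 1 and 3, alone in a stretch of 2179 kb. On chromosome 1 a stretch of 1901 kb without a sh-Kmt2d peak held 4 regions of EV lists. Of these, 2 were missing regions in all 3 EV lists: chr1:90966125-90966602 with signals of 29, 30 and 43 and chr1:90912171-90912670 with signals of 25, 23 and 23. On chromosome 4 a stretch of 792 kb held 3 regions of EV lists, all of them missing regions, among them chr4:125158343-125159034 with signals of 27, 32 and 38. Of the 5 regions named here, the last 3 were held by all EV lists, and none had a signal above 43.

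Missing regions occurred on all 19 autosomes. Their share among regions of at least 2 EV lists was lowest on chromosome 13 (46 of 1429, 3.22%, 95% Wilson interval 2.42% to 4.27%) and highest on chromosome 12 (88 of 1304, 6.75%, 5.51% to 8.24%), with chromosome 1 at 6.36% (132 of 2075, 5.39% to 7.49%). These chromosomes are named for their values, and neighbouring regions are not independent, so the intervals cover counting error only. Shares found only in sh-Kmt2d ran from 0.827% on chromosome 7 to 2.29% on chromosome 18, and were 1.63% on chromosome 13 and 1.69% on chromosome 12. On each autosome the share missing was above the share found only in sh-Kmt2d.

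**Figure D5:**
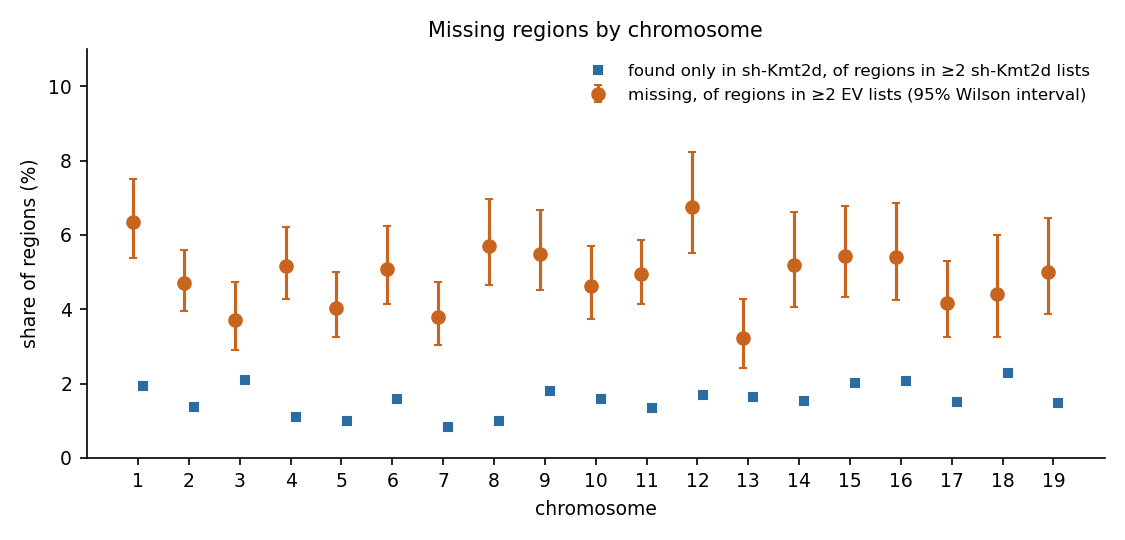
Share of regions (%, vertical axis) by chromosome (horizontal axis) that were missing from sh-Kmt2d (orange circles with 95% Wilson intervals) or found only in sh-Kmt2d (blue squares). Missing shares run from 3.22% on chromosome 13 to 6.75% on chromosome 12, above the squares on each chromosome.

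Along the chromosomes the missing regions were spread widely. The nearest other missing region lay a median of 163742 bases away, and 909 of them (59.4%) had none within 100 kb. In windows of 1 Mb, 810 windows held at least 1 missing region, 423 of them exactly 1, and 40 held 5 or more, out of 1819 windows with a region in at least 2 EV lists. The window with the most was chromosome 16 from 10 to 11 Mb, where 9 of 42 regions of at least 2 EV lists were missing and none was found only in sh-Kmt2d. Its missing regions reached from chr16:10192630-10192970 to chr16:10967207-10967946, and 2 of the 9 were in all 3 EV lists. The strongest was chr16:10676686-10677333, 647 bases long with signals of 37, 29 and 43 in EV lists 1 to 3, also among the 10 strongest of all. In the same window, chr16:10967207-10967946 had signals of 27 and 47 in EV lists 1 and 3. The window of chromosome 15 from 98 to 99 Mb held 8 missing among 47 regions, 1 of them in all 3 EV lists. The window of chromosome 7 from 52 to 53 Mb held 8 among 89, with 4 in all 3 EV lists, such as chr7:52873576-52874009 with signals of 27, 33 and 36. Neither held a region found only in sh-Kmt2d. Such regions were 1.52% of those in at least 2 sh-Kmt2d lists over all autosomes, so counts of 0 say little about these windows. Windows with more marked regions have more that can be missing, and the share was 21.4% in the first window, 17.0% in the second and 8.99% in the third, beside 4.89% over all autosomes. The windows were picked for their counts, so that these shares are a description.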

How the data were processed

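The deposited RNA tables give unnormalized read counts for each gene. The submitters' processing notes list CASAVA 1.8.2, HTSeq 0.6.0 and build mm9. The deposited peak lists have 11 columns without a header and give 1 list per library, with scores in columns 4 and 5, a signal in column 7 and a percent position of the highest point in column 8, which was not used. Which program called the peaks, at which threshold and against which control is not given in these sources. It is not stated either if starts are counted from 0 or 1, so coordinates are printed as listed. Chromosome 1 peaks reach to 197037905, past the last gene of the GRCm38.p6 gene table (195291439), so that table served for gene names only, and regions were not joined to genes or to sequence.

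Autosomal peaks of the 6 lists that overlapped by 1 base or more were joined (Python 3.11.15, pandas 2.3.3, numpy 2.4.6, scipy 1.17.1), and a list held a region if 1 of its peaks was part of it. The joining was run on simulated lists of widely spaced regions, in which all peaks of a region overlapped. That check covers neither adjacent peaks nor several peaks of 1 list in a region. Where a list had several peaks in a region, the strongest counted. Scores have no known common scale, so each was ranked within its own autosomal list. The mean rank of a region is over the EV lists that hold it. Lists were compared by two-sided exact permutation over the 20 ways to divide 6 lists, and Kmt2d over the 126 ways to divide 9 libraries. Alternative scaling of Kmt2d used edgeR 4.0.16 (TMM) and DESeq2 1.42.0 size factors in R 4.3.3. Gene counts per RNA library ran from 5925745 to 29284830.

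The regions named are the 10 strongest of all 3 EV lists, the 5 longest, the 5 farthest from and the 3 nearest to a sh-Kmt2d peak, the 3 strongest just outside the rule, and the 3 windows with the most. The members, marker lists and this naming were chosen with earlier results of these data known. The planned RNA comparison of neighbouring genes and the base composition needed an mm9 annotation and genome and were not run. The sum over the B cell markers is not reported here.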

Additional observations from a re-analysis of the deposited data

Results flagged for a closer look

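In groups of 4 to 10 libraries, a value was singled out when its gap to the nearest other exceeded Dixon's 95% critical share of the group's range, which chance alone reaches in about 1 of 20 groups. Kmt2d in sh-Kmt2d RNA replicate 3 (title number 103_5) was set apart at 225 CPM, above the 5.23 to 61.4 CPM of the other 4, and list sh-Kmt2d 1 has the same title number. The summed T cell markers of EV RNA replicate 4 (title number 87_5, as for list EV 3) stood apart at 266 CPM. Of this sum Cd2 alone gave 245 CPM, so it gives no amount of T cells. The summed macrophage markers of EV RNA replicate 1 reached 514 CPM, and the summed stromal markers of sh-Kmt2d RNA replicate 5 reached 2.70 CPM. Neither of these 2 title numbers is among the peak lists.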

How the results depend on the processing

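The number of missing regions, 1530, stayed within 1.5 times of that value with an overlap of at least 200 bases, gaps of up to 500 bases joined, lists of equal length, all chromosomes or touching peaks joined (1188 to 1621). It was 418 with all 3 EV lists needed, 5604 with 1, 633 with only peaks above the 50th percentile of every list, and 0 when that limit was set in the EV lists alone. Leaving out single lists gave 648 to 3175, and leaving out 1 list of each group 695 to 2257. Regions found only in sh-Kmt2d (437) numbered 766 with an overlap of at least 200 bases, 99 with all 3 lists needed, 2330 with 1, 224 above the 50th percentile of every list and 2 with that limit in the sh-Kmt2d lists alone. They ran from 150 to 755 without single lists and from 199 to 497 without 1 list of each group. The cause of these changes was not tested, beyond the smaller or larger number of lists or peaks that each setting leaves. The length of missing regions was 354 bases as joined and 243.5 bases as the mean of their EV peaks. Score percentiles by columns 7 and 4 differed from those by column 5 by less than the spread between the EV lists. The differences between groups in peaks and covered bases kept their direction in each setting run, where 3 lists against 3 cannot pass a threshold of 0.05. The Kmt2d difference kept its direction under TMM and DESeq2 scaling (exact permutation p = 0.0317 in both) and ran from -3.69 to -2.33 without single libraries. No paired analysis was possible because the chromatin titles of the groups share fewer than 2 numbers and the RNA numbers are not said to pair tumours. Depth of the chromatin libraries is unknown, so a region without a peak may be one that the depth of that library could not show.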
